A study of Mus musculus with 25 samples.

Results

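Caveolae are flask-shaped pits of the plasma membrane, and 7 genes of their coat and neck were followed here among the 25006 entries of the RNA table. They were Cav1, Cav2, Cavin1 (listed in the table under its older name Ptrf), Cavin2 (Sdpr), Cavin3 (Prkcdbp), Ehd2 and Pacsin2, taken by symbol. All 7 were found once each and passed the filter on low values. The set was chosen by a biological role but with the normalized counts of both groups already known, so the values that chose it are the differences between control and anti-CD73 libraries, and those differences are described below with no p-value.

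The 6 libraries came from tumours of E0771, a mammary carcinoma line, in C57BL/6 mice, and the labels call the material enriched CD8+ T cells. The 3 control libraries carry the treatment label con, which gives no further detail, and the 3 others came from mice given anti-CD73, an antibody against the ecto-enzyme that makes extracellular adenosine, every 3 days. No genetic change is stated for either group, and neither the age of the mice nor whether a library held 1 animal or a pool is given in the labels. The comparison asks how the tumour material differed when CD73 was targeted, and 19 further samples among the 25 in the series, from cultured spleen cells, were not analysed here.

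Caveolin-1 is the integral coat protein without which most cells form no caveolae, and caveolin-2 joins it in mixed oligomers. The cavins are peripheral coat proteins that assemble on caveolin-rich, cholesterol-rich membrane, with cavin-1 required for the pit to form and cavin-2 and cavin-3 modulating its shape and movement. The ATPase EHD2 forms a ring at the neck, and the F-BAR protein PACSIN2 bends the membrane there. Endothelial cells, adipocytes, fibroblasts and muscle are rich in caveolae, whereas lymphocytes have few or none.

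The libraries held between 10180624 and 17161679 reads in genes, and each member had between 641 and 9701 reads in every library. Exact Poisson intervals at 95% therefore had a half-width (full width divided by 2) of at most 7.82% of a member's reads. These intervals cover counting error only. The labels do not tie replicates to separate animals, so the spread between libraries may be partly technical. Control replicate 1 stood apart over the whole table. Set against the mean of the remaining 2 controls, its log2 values differed with an SD of 0.75 over 12262 tested genes, compared with 0.35 between those 2, and values without it are given beside the members and the counts of each list. Markers that define the labelled cell type were scarce. In normalized counts, the controls had 122, 7.60 and 24.7 for Cd8a and 55.8, 5.07 and 9.73 for Cd3e. The anti-CD73 libraries had 90.2, 82.6 and 35.0 for Cd8a and 29.8, 22.2 and 11.3 for Cd3e. The material was thus a mixture, in which fewer cells of a type and less RNA per cell cannot be told apart.

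Both caveolin transcripts were less abundant in every anti-CD73 library than in any control. Cav1 (ENSMUSG00000007655; mm10 chromosome 6, 17306335 to 17341328) stood at 7953, 7479 and 7260 normalized counts in control replicates 1, 2 and 3. After anti-CD73 it stood at 4473, 4819 and 5262 in replicates 1, 2 and 3. The groups did not overlap, and the lowest control lay well above the highest anti-CD73 library. The means were 7564 ± 354 and 4851 ± 395 (SD, n = 3 libraries per group), a fold of 0.641, and the log2 fold change was -0.64 (SE 0.11). The value was -0.61 when control replicate 1 was left out.

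Cav2 (ENSMUSG00000000058; chromosome 6, 17281185 to 17289130), whose protein depends on caveolin-1 to reach the cell surface, had 4242, 3369 and 2945 normalized counts in the control replicates and 1785, 1696 and 2027 after anti-CD73. Again the groups did not overlap, but the controls spread more widely than for Cav1, with replicate 1 the highest. The log2 fold change was -0.93 (SE 0.16), or -0.78 without control replicate 1. Within a library, the ratio of Cav1 to Cav2 normalized counts ran from 1.87 in control replicate 1 to 2.84 in anti-CD73 replicate 2, and all 3 anti-CD73 libraries had a higher ratio than the 3 controls. The ratio is not a molar one, as it was not corrected for transcript length.

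Cav2 and Cav1 lie side by side, 17204 bases apart on the forward strand with no other protein-coding gene of the table between them. Of the 3 protein-coding genes on each side, chosen after the members' values were seen, 3 (Tes, Met and Capza2) also had lower values in every anti-CD73 library than in any control, as did 12.0% of all tested genes. Tes, a focal adhesion protein gene and the next one before Cav2, had 3896, 3958 and 3989 normalized counts in the controls and 3207, 2647 and 3616 after anti-CD73 (log2 fold change -0.33, SE 0.13, limma adjusted p = 0.297). Met, the hepatocyte growth factor receptor gene and the next one after Cav1, had a log2 fold change of -0.45 (SE 0.14, limma adjusted p = 0.206), and Capza2, an actin capping subunit gene, -0.46 (SE 0.16, limma adjusted p = 0.238). None of the 3 passed. Mdfic (0.02, SE 0.25), Tfec (0.57, SE 0.35) and St7 (-0.11, SE 0.13) had overlapping groups.

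With all libraries used, the 3 cavin genes did not share one profile. Cavin2 (Sdpr; ENSMUSG00000045954; chromosome 1, 51289126 to 51302960) followed the caveolins. Its values were 1595, 1636 and 1689 normalized counts in the controls and 764, 679 and 873 after anti-CD73. The controls were the most even of any member, with a coefficient of variation of 2.87%, and every anti-CD73 library lay far below them. The means were 1640 ± 47.1 and 772 ± 97.4 (SD, n = 3), a fold of 0.471, and the log2 fold change of -1.09 (SE 0.12) was the largest in size among the 7 when all libraries were used. Without control replicate 1 it was -1.11, next to -1.12 for Cavin3.

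Cavin1 (Ptrf; ENSMUSG00000004044; chromosome 11, 100956736 to 100970617), the cavin that caveolae cannot form without, had 2135 normalized counts in control replicate 1 but 4575 and 4541 in control replicates 2 and 3. The anti-CD73 libraries lay between these, at 2474, 2583 and 2778. Control replicate 1 was thus the lowest of all 6 libraries and the other 2 controls the highest, so the groups overlapped. The log2 fold change was -0.44 (SE 0.29) with all libraries. It was -0.80 without control replicate 1, and -0.26 without control replicate 2 or, separately, without control replicate 3.

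Cavin3 (Prkcdbp; ENSMUSG00000037060; chromosome 7, 105480616 to 105482197), named in the table for its binding to protein kinase C delta, showed the same order with a wider range. Its normalized counts were 656, 2557 and 2675 in the controls and 1053, 1213 and 1369 after anti-CD73. The log2 difference of control replicate 1 from the mean of the other controls was -1.99 for Cavin3, -1.09 for Cavin1, -0.06 for Cavin2 and 0.11 for Cav1. The log2 fold change was -0.45 (SE 0.50) and became -1.12 without control replicate 1. Leaving out control replicate 2 gave -0.14, and leaving out control replicate 3 gave -0.10. The value for Cavin3 therefore moved by a large factor with each control left out, away from 0 for replicate 1 and towards 0 for replicates 2 and 3.

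**Figure D1:**
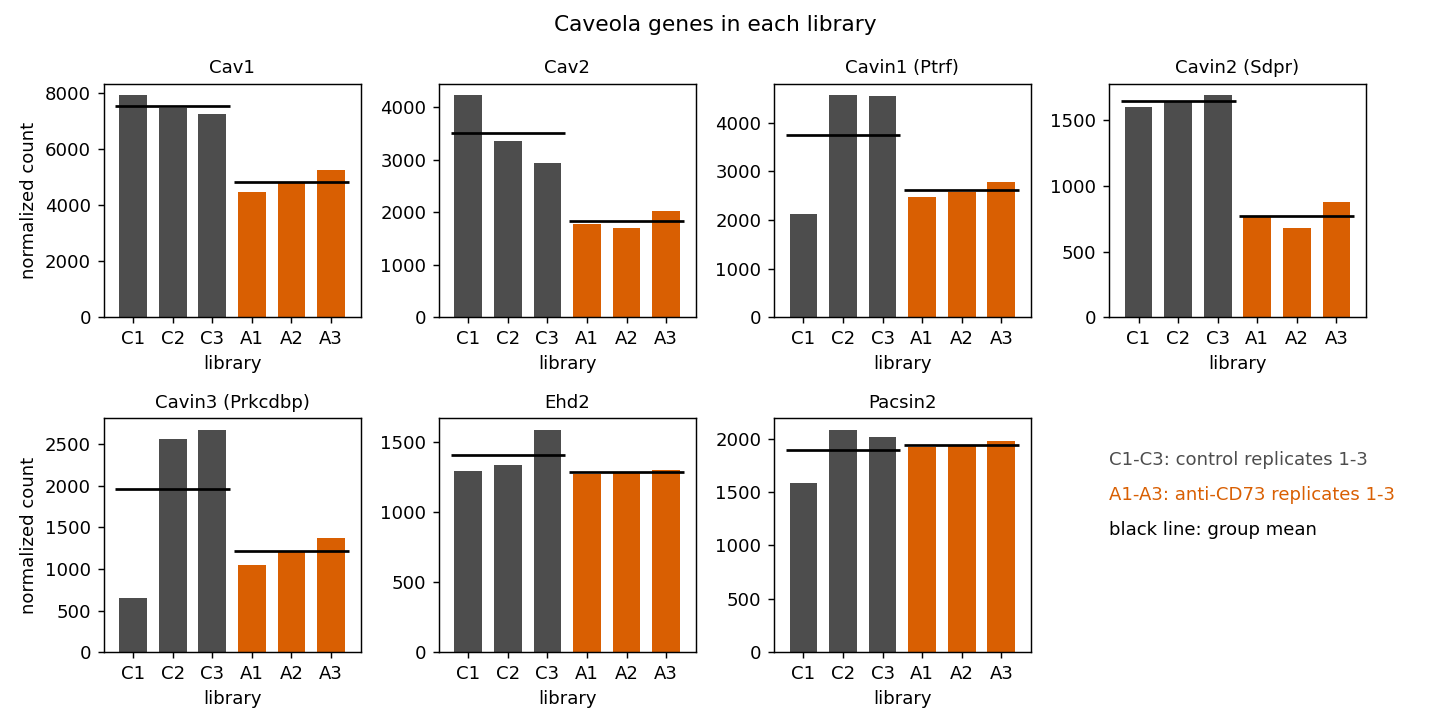
Normalized count (vertical axes, each starting at 0) of the 7 caveola genes in control replicates 1 to 3 (C1 to C3, grey) and anti-CD73 replicates 1 to 3 (A1 to A3, orange), with group means as black lines. Cav1, Cav2 and Cavin2 have every orange bar below every grey bar, Cavin1 and Cavin3 have their lowest bar in C1 (2135 and 656), and Ehd2 and Pacsin2 are nearly level.

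The 2 neck and curvature genes stayed close to their control levels. Ehd2 (ENSMUSG00000074364; chromosome 7, 15946963 to 15967535) had 1294, 1335 and 1590 normalized counts in the controls and 1275, 1290 and 1304 after anti-CD73. The ranges overlapped narrowly, and control replicate 3 was the only library that stood out. The log2 fold change was -0.12 (SE 0.12), with -0.18 when control replicate 1 and -0.03 when control replicate 3 was left out. Pacsin2 (ENSMUSG00000016664; chromosome 15, 83375607 to 83464610) had 1585, 2085 and 2013 in the controls and 1922, 1927 and 1979 after anti-CD73, all 3 inside the control range. Its log2 fold change was 0.05 (SE 0.13), and -0.08 without control replicate 1, so its sign was not stable. Within the anti-CD73 group these were the most even members, with coefficients of variation of 1.13% and 1.64%.

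Of the 7 members, 6 had a negative and 1 a positive log2 fold change, with a median of -0.45, beside 49.5% of all 12262 tested genes with a negative value and a median of 0.00 over all. The members' median was -0.78 without control replicate 1 and -0.26 without either of the other controls. Non-overlapping, lower values were found for 3 members, against a background of 12.0% of tested genes, and this contrast was in view when the members were chosen. No member was called by limma at an adjusted p under 0.05 over all genes tested, as 0% of tested genes were (smallest adjusted p 0.141). At an unadjusted p under 0.05, 1902 genes passed, 6.82% of tested genes lower and 8.69% higher. On recovered reads, edgeR called 0 genes and DESeq2 524 at the same adjusted threshold. Among tested genes, 0.522% had a lower log2 fold change than Cavin2, 0.848% a lower one than Cav2 and 2.42% a lower one than Cav1, while 33.0% lay below Ehd2 and 55.4% below Pacsin2.

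Since the members behaved differently over the 6 libraries, their profiles were compared pair by pair. The measure was the root mean square difference over the 6 libraries between log2(normalized count + 1) values, each gene centred on its own mean, so that a smaller value means a closer profile. The closest pairs were Ehd2 with Pacsin2 (0.14), Cav1 with Cav2 (0.19), Cav2 with Cavin2 (0.20) and Cav1 with Cavin2 (0.25). Cavin1 and Cavin3 were 0.31 apart, and the farthest pair was Cav2 with Cavin3 (0.85). These differences include control replicate 1, in which Cavin1 and Cavin3 were at their lowest. Without that library the log2 fold changes were -0.80 for Cavin1 and -1.12 for Cavin3. They were then -0.61 for Cav1, -0.78 for Cav2 and -1.11 for Cavin2. The pairwise differences were not computed without that library, so how far the division depends on it was not tested. Ranked among 10235 other genes with a mean of at least 50, Cav2 was 16th closest to Cavin2 and Cavin2 66th closest to Cav2, while Cav1 was 49th closest to Cav2 and Cav2 440th closest to Cav1. Cavin1 was 109th closest to Cavin3, but Cavin3 was 1417th closest to Cavin1. For the pair with the smallest difference, Pacsin2 was only 1447th closest to Ehd2 and Ehd2 1681st closest to Pacsin2, so many other genes lay nearer to each of them.

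**Figure D2:**
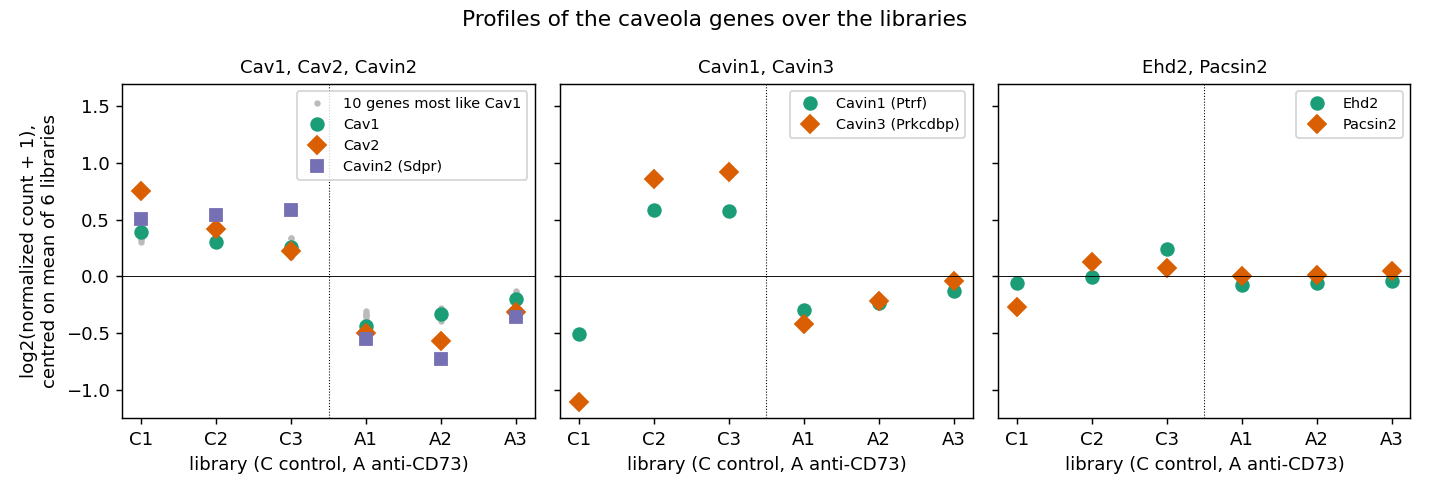
Values of log2(normalized count + 1) minus each gene's mean over the 6 libraries (vertical axis) for the caveola genes in each library (C control, A anti-CD73), with the 10 genes most like Cav1 as small grey points. Cav1, Cav2 and Cavin2 lie above 0 in all controls and below it in all anti-CD73 libraries, Cavin1 and Cavin3 are lowest in C1, and Ehd2 and Pacsin2 stay near 0.

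**Figure D3:**
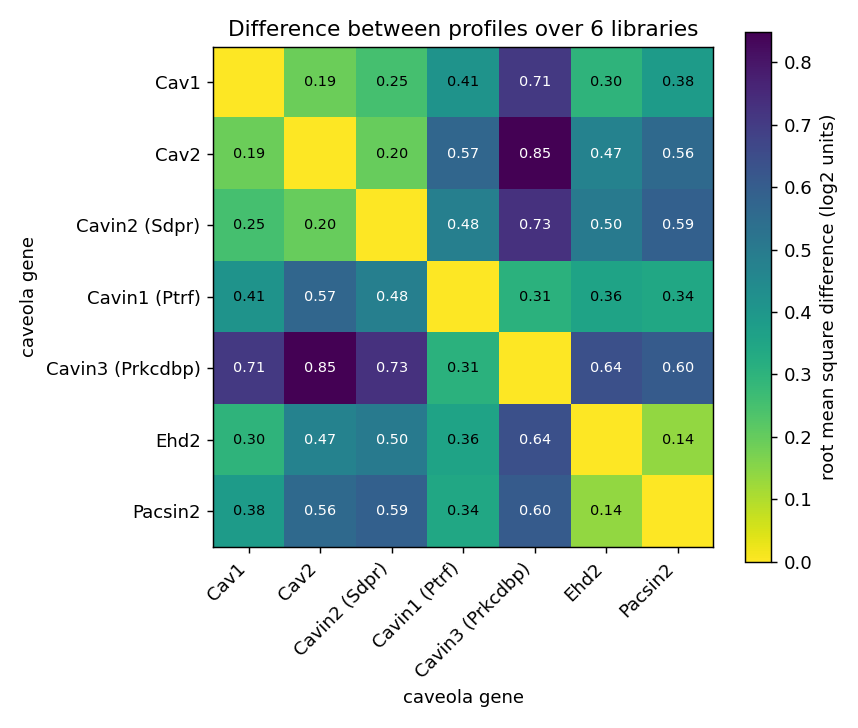
Root mean square difference in log2 units between the profiles of each pair of caveola genes over 6 libraries, control replicate 1 included; yellow is close and dark is far. The pair Ehd2 and Pacsin2 is closest at 0.14 and the pair Cav2 and Cavin3 farthest at 0.85.

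Ratios within a library restate the same counts in another form. The ratio of Cav1 to Cavin1 normalized counts was 3.72 in control replicate 1, 1.63 and 1.60 in the other controls, and 1.81, 1.87 and 1.89 after anti-CD73. Outside control replicate 1 it thus kept within a narrow range, slightly higher in the anti-CD73 libraries than in control replicates 2 and 3. The ratio of Cav1 to Cavin3 was 12.1 in control replicate 1 and between 2.71 and 4.25 in the other 5 libraries. Its highest value was 4.47 times its lowest, against 1.52 times for Cav1 to Cav2 and 1.65 times for Cav1 to Cavin2. The same span was 1.75 times for Cav1 to Ehd2, 2.16 times for Cav1 to Pacsin2 and 2.33 times for Cav1 to Cavin1. These spans thus did not divide the members as the profiles did.

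The 10 genes with profiles closest to Cav1 were Ccnyl1 (0.03), Klf5 (0.04), Esyt2 (0.05), Rad18 (0.05), Sdc2 (0.05), Hexim1 (0.05), Cfl2 (0.06), Emp1 (0.06), Nid1 (0.06) and Adss (0.06), with the root mean square difference in brackets. In all, 37 of the 10235 genes lay within 0.1 of Cav1. Klf5, a zinc-finger transcription factor gene, had 1239, 1234 and 1079 normalized counts in the controls and 708, 758 and 833 after anti-CD73. Sdc2, which encodes the heparan sulfate proteoglycan syndecan-2, had 2239, 2127 and 2176 in the controls and 1316, 1304 and 1437 after anti-CD73. Like Cav1, both had groups that did not overlap, which follows from their choice by closeness to its profile over these same libraries. The other named genes encode, among others, the endoplasmic reticulum tether Esyt2, the actin-severing cofilin Cfl2 and the basement membrane protein nidogen-1 (Nid1).

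None of the 5 genes closest to any other member belonged to the lists used here. Sqle and Msmo1, 2 of the 5 closest to Cav2, are named after their values were seen. Sqle, the squalene epoxidase gene, was 0.09 away and had 3167, 2510 and 2277 normalized counts in the controls and 1438, 1502 and 1690 after anti-CD73. Msmo1, a methylsterol monooxygenase gene, was 0.12 away, with 2845, 1817 and 1603 in the controls and 1073, 1065 and 1286 after anti-CD73. In both, control replicate 1 was the highest library, as for Cav2, a likeness that their choice by profile largely brings about. Close to Cavin3 were the collagen VI genes Col6a2 and Col6a1 (both 0.16 away), also named after their values were seen. Col6a1 had 2448 normalized counts in control replicate 1 against 11593 and 13260 in the other controls.

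Cav1, Cav2 and Cavin2 were lower in every anti-CD73 library than in any control. Cavin1 overlapped the controls, but through control replicate 1 alone. Without that library the log2 fold change was -0.80 for Cavin1 and -0.61 for Cav1, so this grouping rests on 1 library. The 250 bases before the start of Cav1, Cav2, Cavin2 and Cavin1 are shown. They come from RefSeq on GRCm38.p6, the assembly of mm10, in which 6 of the 7 members were found and Cavin3 was the other. Each is written 5′ to 3′ on the gene's own strand and ends just before the start site. Capitals mark matches, on either strand, to the GC box (GGGCGG), the CCAAT box (CCAAT), the TATA box (TATAAA), the AP-1 site (TGACTCA), the TEAD site (GGAATG) or the CArG box, the site of serum response factor. These motifs were chosen after the members' values were seen. The windows are chr6:17306085-17306334 for Cav1, chr6:17280935-17281184 for Cav2 and chr1:51288876-51289125 for Cavin2, all on the forward strand, and chr11:100970618-100970867 on the reverse strand for Cavin1.
Cav1: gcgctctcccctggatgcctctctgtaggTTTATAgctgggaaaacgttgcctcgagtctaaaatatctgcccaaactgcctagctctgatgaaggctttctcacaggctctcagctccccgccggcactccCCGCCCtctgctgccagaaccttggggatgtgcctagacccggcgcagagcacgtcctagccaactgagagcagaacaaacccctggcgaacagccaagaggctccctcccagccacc
Cav2: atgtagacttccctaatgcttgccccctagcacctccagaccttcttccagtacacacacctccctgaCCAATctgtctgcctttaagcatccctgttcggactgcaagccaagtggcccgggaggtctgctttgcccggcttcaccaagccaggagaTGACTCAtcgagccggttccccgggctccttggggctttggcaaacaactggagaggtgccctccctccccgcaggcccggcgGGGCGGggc
Cavin2: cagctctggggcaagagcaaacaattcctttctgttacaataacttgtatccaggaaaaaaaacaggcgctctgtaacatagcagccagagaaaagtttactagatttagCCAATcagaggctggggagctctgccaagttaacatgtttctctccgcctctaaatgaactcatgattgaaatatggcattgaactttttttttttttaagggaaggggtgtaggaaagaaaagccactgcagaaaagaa
Cavin1: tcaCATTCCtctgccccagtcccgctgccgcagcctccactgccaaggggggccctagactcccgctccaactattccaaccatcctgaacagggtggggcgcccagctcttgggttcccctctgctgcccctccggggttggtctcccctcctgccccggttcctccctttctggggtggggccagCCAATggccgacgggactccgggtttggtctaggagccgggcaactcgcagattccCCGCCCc
Cav1, Cav2 and Cavin2 had none of the searched motifs in common to all 3 windows. The Cav1 window shown had 1 GC box, 118 bases before its start, and 1 TATA box, 221 bases before it, both on the opposite strand. RefSeq gives Cav1 a second start, and the window before that one (chr6:17307390-17307639) held none of the searched motifs. Cav2 had 1 GC box 9 bases before its start, 1 CCAAT box and 1 AP-1 site, the latter 92 bases before the start. Cavin2 had 1 CCAAT box alone, and Cavin1 had 1 GC box, 1 CCAAT box and 1 TEAD site. Over all 32851 windows of this length, 32.7% held a GC box, 33.9% a CCAAT box, 12.4% a TATA box, 4.46% an AP-1 site, 12.6% a TEAD site and 1.47% a CArG box, and no member's window held a CArG box. No motif searched overlaps another in these 4 windows. The Cavin2 window was 40.4% G and C, against 59.6% for Cav1, 62.0% for Cav2, 67.6% for Cavin1 and a median of 52.4% over all windows. A match of letters is a description and does not show that a factor binds.

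Other genes that take part in building or moving caveolae were read from a separate list of 14. Of these, 8 passed the filter on low values and 0 were called by limma over all genes tested (background 0%), with 4 higher and 4 lower and a median log2 fold change of -0.01. At an unadjusted p under 0.05 limma also had 0 of the 8, and edgeR and DESeq2 called 0. The paralogues of the neck ATPase, Ehd1 and Ehd4, had 0.02 (SE 0.15, limma adjusted p = 0.955) and -0.26 (SE 0.15, limma adjusted p = 0.458). The scission GTPase Dnm2 had -0.04 (SE 0.21), the filamin gene Flna, whose product ties caveolin-1 to actin, -0.14 (SE 0.17), and the kinase genes Src and Abl1 -0.04 (SE 0.13) and 0.09 (SE 0.27). Pacsin3, the paralogue of Pacsin2, had 122, 542 and 528 normalized counts in the controls and 298, 349 and 397 after anti-CD73. That order, with control replicate 1 lowest, was the one of Cavin1 and Cavin3. Without control replicate 1, limma called 4 of the 8, all lower, among 10.3% of tested genes called lower. They were Ehd4 (-0.42, limma adjusted p = 0.00669), Pacsin3 (-0.63, limma adjusted p = 0.0127), Dnm2 (-0.28, limma adjusted p = 0.0369) and Flna (-0.30, limma adjusted p = 0.0423).

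The muscle forms were near the limit of detection. Cav3, the caveolin of muscle, had 0 reads in each control, which allows up to 3 reads per library, and 2, 1 and 1 reads after anti-CD73, so no fold is given. Cavin4 (Murc), the muscle cavin, had between 4 and 6 reads in every library. The neuronal form Pacsin1 had 6, 4 and 2 reads in the controls and 15, 13 and 3 after anti-CD73, and Ehd3 had between 1 and 10 reads in every library.

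**Figure D4:**
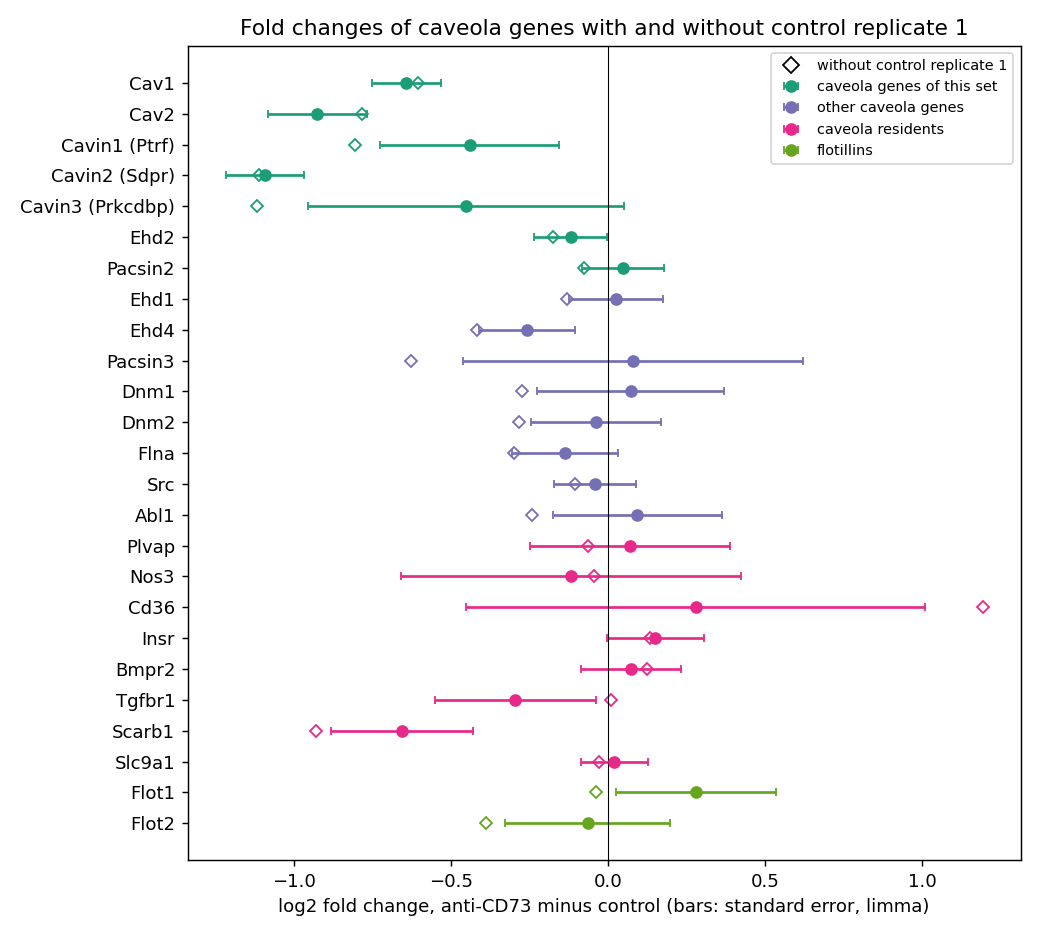
Log2 fold change (anti-CD73 minus control, horizontal axis) with its standard error from limma for the 7 caveola genes, the tested genes of the list of other caveola genes, the caveola residents and the flotillins; open diamonds leave out control replicate 1. Cavin1, Cavin3 and Pacsin3 move most to the left without that library, while Cav1 and Cavin2 barely move.

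Proteins that reside in caveolae in other tissues were covered by 8 genes, of which limma called 0 and 5 lay higher and 3 lower (median 0.05; 1 lower at an unadjusted p under 0.05). Scarb1, the HDL receptor SR-BI, was the only one of the 8 whose groups did not overlap with lower values, a share near the 12.0% of all tested genes. It had 3806, 6706 and 6787 normalized counts in the controls and 3353, 3503 and 3769 after anti-CD73 (log2 fold change -0.66, SE 0.23, limma adjusted p = 0.237). Without control replicate 1 it was called lower (-0.93, limma adjusted p = 0.000935), while the fatty acid receptor gene Cd36 was called higher (1.19, limma adjusted p = 0.0217, against 0.28, SE 0.73 and limma adjusted p = 0.887 with all libraries). Plvap, which forms the diaphragm across the mouth of endothelial caveolae, lay between 12.2 and 19.0 normalized counts in the 6 libraries, and Nos3, the endothelial nitric oxide synthase, between 8.47 and 26.9. The flotillin genes, whose products mark rafts without caveolin, had 0.28 for Flot1 (SE 0.26) and -0.06 for Flot2 (SE 0.26), with 0 of 2 called. Of the 14 genes of the clathrin route, a separate path of endocytosis, 7 lay higher and 7 lower (median -0.01), and limma called 0, with 0 at an unadjusted p under 0.05. The largest values of that list were 0.23 for Itsn1 (SE 0.13) and -0.26 for Cltb (SE 0.22). When control replicate 1 was left out, limma called Flot2 lower (-0.39, limma adjusted p = 0.0235) and 2 of the 14 clathrin genes lower, beside 10.3% of all tested genes, so the clathrin share was near the background.

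Most tested markers of cell types known for caveolae lay higher after anti-CD73, as counted list by list below. Among those that lay lower were the mural marker Rgs5 (-0.25, SE 0.59), the fibroblast marker Postn (-0.66, SE 0.32) and the adipocyte marker Fabp4 (-0.40, SE 0.37). The endothelial marker Vwf was nearly level (0.04, SE 0.43). For each of the cell type lists below limma called 0 genes with all 6 libraries, and the counts at an unadjusted p under 0.05 stand beside them. All 7 tested endothelial markers lay higher after anti-CD73 (median 0.58, 3 at that unadjusted p), and the summed normalized count of the 10 listed ran from 748 to 1321 in controls and from 1334 to 2012 after anti-CD73. Pecam1 had 182, 44.3 and 49.4 normalized counts in the controls and 282, 291 and 172 after anti-CD73, and Cdh5 182, 88.7 and 83.1 against 145, 210 and 136. In the fit that left out control replicate 1, limma called 5 of the 7 higher, among 11.9% of tested genes called higher. For mural and smooth muscle cells, 4 of 5 tested markers lay higher (median 0.64, 3 at that p), with sums of 474 to 677 in controls and 805 to 976 after anti-CD73. Acta2 stood at 148, 128 and 135 against 238, 275 and 195, while Myh11 was at 0 in control replicate 1 and in anti-CD73 replicates 2 and 3. With control replicate 1 left out, limma called 3 of the 5 higher.

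Fibroblast markers were split, with 5 of 8 tested higher (median 0.16, 2 at that p, both higher) and sums of 3931 to 4856 in controls and 4883 to 5644 after anti-CD73. Col1a1 had a log2 fold change of 0.24 (SE 0.18) and Pdgfra 0.09 (SE 0.13). Leaving out control replicate 1 gave 0 called fibroblast markers by limma. Of the adipocyte markers 3 of 8 passed the filter, 2 higher and 1 lower (median 0.42, 1 at that p, higher). All 3 were called by limma without control replicate 1, 2 higher and 1 lower, and the median was 1.36. Those higher were Pparg (2.46) and Lpl (1.36), and Fabp4 was lower (-0.78). The summed list stood at 702, 237 and 270 in the controls and 377, 571 and 271 after anti-CD73, with control replicate 1 highest. The defining genes were near 0, with Adipoq at 1.02 normalized counts in control replicate 1 and 0 elsewhere, and Plin1 at 0 in all controls. All 4 tested markers of skeletal muscle lay higher (median 0.35, 1 at that p). The highest of them, Tnnt3 (2.35, SE 0.78), had means of 3.86 in controls and 17.5 after anti-CD73. It thus passed the filter on low values only through the anti-CD73 group, and its rise is no separate evidence. For Ckm the control libraries had 44.7, 77.3 and 118 normalized counts, against 102, 98.5 and 75.1 after anti-CD73. The median of the 4 was 0.04 without control replicate 1, with 1 called higher, and Ckm had -0.07.

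Epithelial markers had 2 of 7 tested, both lower (median -0.36, 0 at that p), with sums of 1961, 3660 and 4661 in control replicates 1, 2 and 3 and 2480, 2093 and 2703 after anti-CD73. Krt8 made up most of that sum, at 1856, 3591 and 4559 in the controls and 2341, 2000 and 2651 after anti-CD73, whereas Epcam lay between 4.11 and 9.14 in all libraries. Control replicate 1 was the lowest library for Krt8, as for Cavin1 and Cavin3, but not for Krt18, the other tested marker. Krt18 had 89.4, 54.5 and 84.6 in the controls and 112, 54.0 and 37.0 after anti-CD73. Macrophage markers lay higher in 8 of 8 (median 0.82, 5 at that p), with sums of 7354 to 15645 in controls and 14162 to 22786 after anti-CD73. All 10 T cell markers had a positive log2 fold change (median 0.71, 1 at that p). Their sums were 643, 155 and 201 in the controls and 597, 536 and 308 after anti-CD73. Control replicate 1 was thus the highest library for that sum. The 6 erythroid markers lay lower (median -0.73, 0 at that p), at 0.243, 1.87 and 1.87% of reads in the controls and 0.666, 1.03 and 0.278% after anti-CD73. Neutrophil markers lay higher in 5 of 6 (median 0.94, 4 at that p). Without control replicate 1, limma called 7 of 8 macrophage, 6 of 10 T cell and 4 of 6 neutrophil markers higher, beside 11.9% of all tested genes. It called 6 of 6 erythroid and 1 of 2 epithelial markers lower, beside 10.3% of all tested genes. The part of these cell types in the levels of the caveola genes was not tested.

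**Figure D5:**
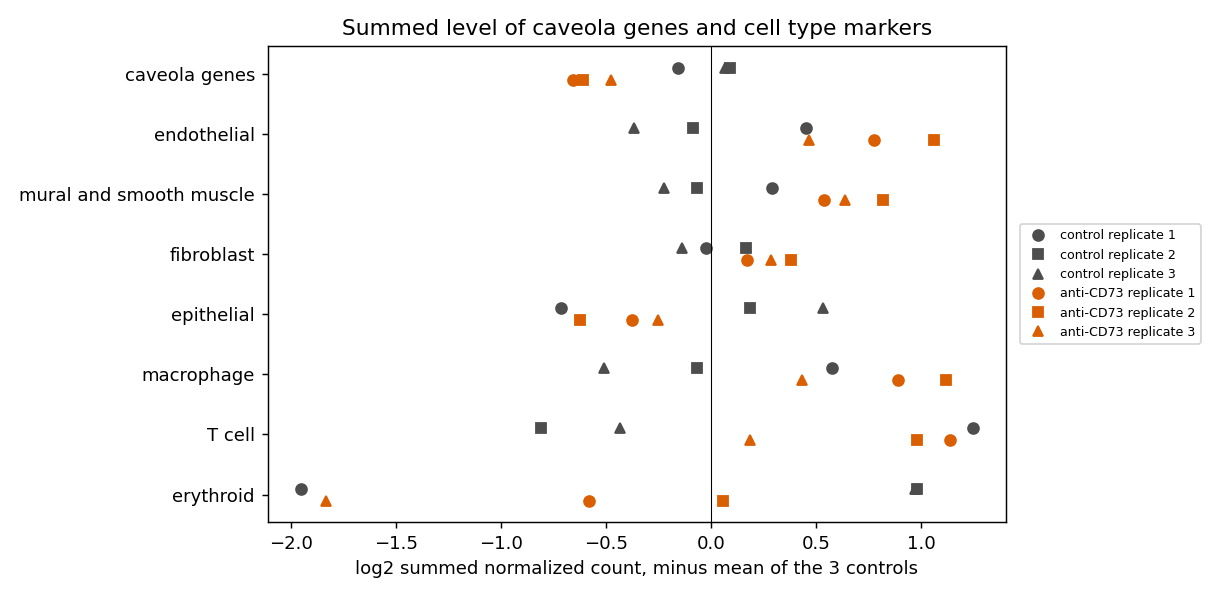
Log2 of the summed normalized count of each marker list in each library, minus the mean of the 3 controls (horizontal axis), for the 7 caveola genes and 7 cell type lists; grey symbols are controls and orange symbols anti-CD73 libraries. The sum of the caveola genes is lower in all anti-CD73 libraries, and the sums of the endothelial, mural and fibroblast lists are higher in them. The gap is narrow for the endothelial list (highest control 1321, lowest anti-CD73 library 1334) and the fibroblast list (4856 and 4883). Control replicate 1 lies apart from the other controls for the epithelial, macrophage, T cell and erythroid lists.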

How the data were processed

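Bulk RNA-seq values of 3 control and 3 anti-CD73 tumour libraries were used, with groups and replicate numbers from the sample titles and columns matched by description. Per the labels, the authors deposited signal values made by dividing each gene's count by that library's DESeq size factor. The submitters' processing notes name Bowtie 0.12.7 and mm10 and give neither a role. Not given in the sources used here are the counter, the annotation, strandedness and the treatment of reads with several matches, so levels of genes with close copies are uncertain. Whole reads were recovered by division, and 100% of values came within 0.01 of an integer.

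The test was limma-trend (limma 3.58.1, R 4.3.3), two-sided, on log2(normalized count + 1) for genes with a mean of at least 10, with Benjamini-Hochberg adjustment over all 12262 and a threshold of 0.05. Fold changes on this scale understate those of genes with few reads. edgeR 4.0.16 and DESeq2 1.42.0 on recovered reads were alternatives. The scripts were tested on simulated data. The members and all gene lists were chosen with earlier results of these data known. Named were all members, the caveola lists, the first 2 markers of a cell type, the list extremes of the clathrin route and the 10 genes most like Cav1 without predicted genes or pseudogenes. Other names were chosen after their values were seen. Coordinates and sequences come from RefSeq on GRCm38.p6, matched by gene ID. No transcript lengths were used, so levels of different genes were not ranked. Figures were drawn with matplotlib 3.10.9.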

Additional observations from a re-analysis of the deposited data

How the results depend on the processing

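Over 15 alternatives per member, the log2 fold changes of Cav1 (-0.70 to -0.53), Cav2 (-1.05 to -0.78), Cavin2 (-1.19 to -1.0), Cavin1 (-0.80 to -0.26), Cavin3 (-1.12 to -0.10) and Ehd2 (-0.18 to -0.03) kept their sign, while Pacsin2 ranged from -0.077 (without control replicate 1, a change of sign) to 0.12 (without control replicate 2). The median of the 7 members was -0.62 with edgeR, -0.64 with DESeq2 and between -0.78 (without control replicate 1) and -0.26 (without control replicate 2; -0.26 also without control replicate 3) with a library left out. The number of genes called over the whole table was 524 with DESeq2 (318 higher, 206 lower) and ranged from 0 to 2724 with a library left out, the latter without control replicate 1, and was 0 under each other setting run. Of the other caveola genes, 0 to 4 were called with a library left out, 4 of them without control replicate 1, and 0 under the other settings. Without control replicate 1, chosen after seeing the data for the remaining lists, calls appeared in 12 of 13 of them. In that fit 11.9% of all tested genes were called higher and 10.3% lower, so a list with a call is nothing unusual. The cause of these differences was not tested.

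Whether the replicate numbers of the titles pair the samples could not be settled. Deviations of same-numbered libraries from their group means correlated over genes by 0.189, -0.0963 and 0.262. Those of differently numbered libraries correlated by -0.274 to 0.187. With 3 libraries per group the deviations within a group sum to 0, so these values are not independent and cannot exclude a pairing. With the replicate block, 0 genes were called over the whole table, 0 of the other caveola genes, and the median of the members was -0.45.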
